A study of Mus musculus with 6 samples.

Results

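The cytokine receptor genes were 10 genes chosen by name, Il6ra, Il6st, Lepr, Il10ra, Il10rb, Ifnar1, Ifnar2, Ifngr1, Ifngr2 and Tnfrsf1a, and all 10 were found by symbol among the 54532 genes of the deposited expression table. They were measured by RNA-seq of hippocampal tissue from 3 wild-type (WT) mice and 3 mice labelled transgenic (TG), 1 library per mouse. TG mice carried the G82R and L85P changes of Slc1a2, the gene of the glutamate transporter GLT-1, which had been introduced into exon 3 with CRISPR/Cas9 on a C57BL/6N background. WT mice carried neither change, and neither group received a treatment named in the labels. The change sits at the endogenous gene and so in every cell of the animal. By the study's methods, the WT controls were littermates, and the cohort had 4 TG mice (3 males and 1 female) and 5 WT mice (4 males and 1 female). Which of these were sequenced, their age and zygosity and the number of founders behind them are not given in the sources used here. With 3 mice per group, p-values measure only the spread between these 6 libraries.

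Cytokine receptors are membrane proteins that bind secreted cytokines outside the cell and pass the signal inward. Il6ra, Il6st, Lepr, Il10ra, Il10rb and the 4 interferon receptor genes encode receptors without a kinase of their own. Ligand binding brings their chains together, the JAK kinases held by the chains become active, and STAT transcription factors enter the nucleus. In several of these receptors 1 chain mainly binds the ligand and another is needed for the signal. Tnfrsf1a belongs to another family, and the death domain of the receptor it encodes recruits adaptors that lead to NF-kappaB or to cell death. In brain, microglia, astrocytes, endothelium and the choroid plexus are known to carry such receptors.

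All 10 genes passed the filter for testing (a mean of at least 0.1 FPKM, fragments scaled to gene length and library size, over the 6 libraries), as did 20952 genes in all. Ifngr2 was the most abundant at a mean of 15.95 FPKM over the 6 libraries, above 84.7% of the genes tested, and its range lay above that of every other member. Il6st (7.83 FPKM) and Ifnar1 (7.59 FPKM) followed with overlapping ranges. Ifngr1 (5.57 FPKM), Tnfrsf1a (4.89 FPKM) and Ifnar2 (4.12 FPKM) came next, and each overlapped its neighbour in this trio. Il10ra (1.91 FPKM), Il6ra (1.47 FPKM) and Il10rb (1.46 FPKM) formed a lower trio, also with overlapping neighbours. Lepr was the least abundant at 0.478 FPKM, above 25.9% of the genes tested, and the mean of Ifngr2 was 33.3 times that of Lepr. In reads, Lepr rested on 19 to 147 reads per library and Il6st on 1259 to 1769, so the values of Lepr carry the larger counting error.

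**Figure D1:**
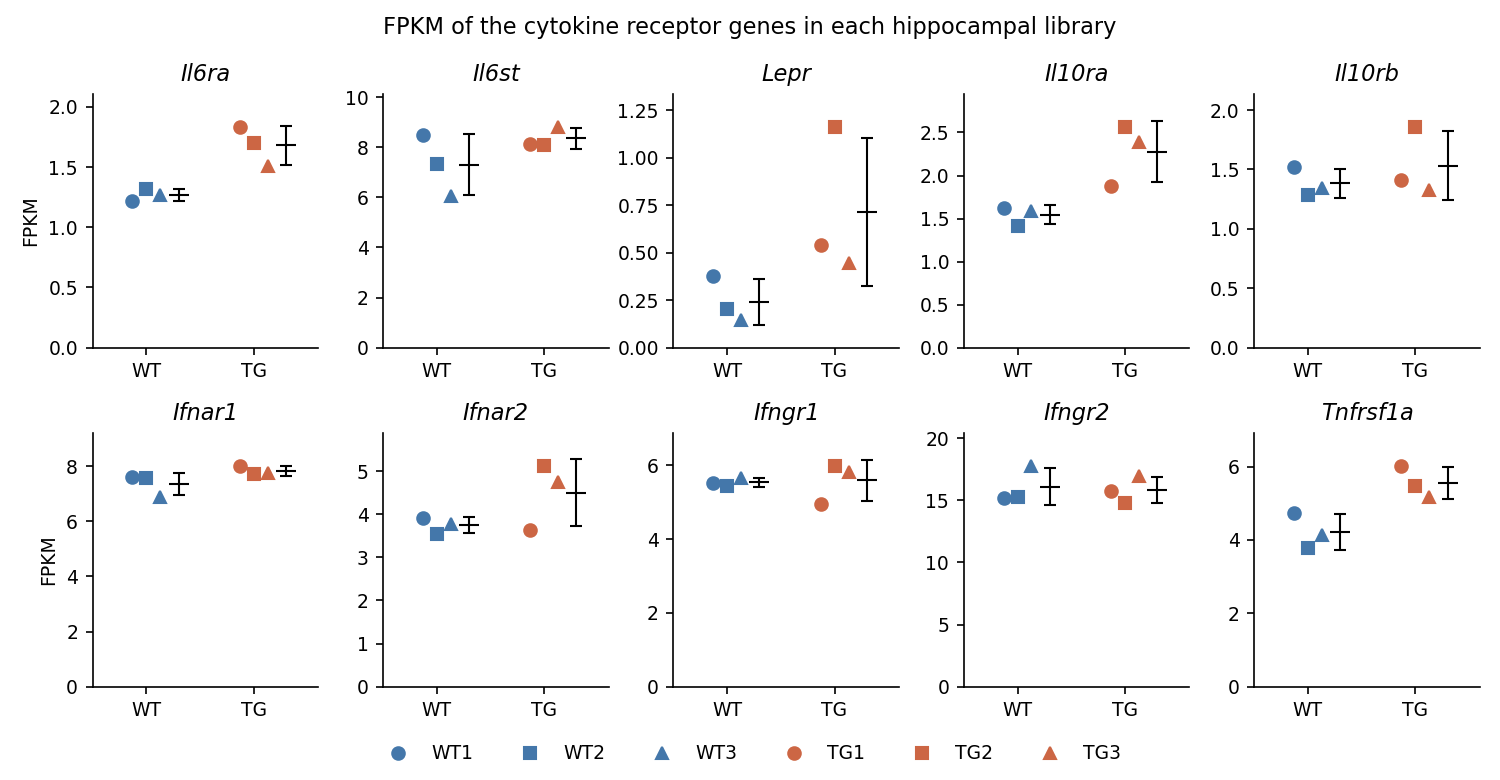
FPKM of each cytokine receptor gene in each library (points) with the mean and SD of each group (bars, n = 3), every axis starting at 0. Points of Il6ra, Lepr, Il10ra, Ifnar1 and Tnfrsf1a in TG mice all lie above those in WT mice, and the other 5 genes overlap between the groups.

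Ifnar2, Il10rb, Ifnar1 and Ifngr2 lie in that order on the plus strand of chromosome 16 within 192841 bases (GRCm38), with gaps of 574, 59403 and 39630 bases between neighbours. They are 4 chains of 3 receptor types, for type I interferon, for IL-10 and its relatives, and for interferon gamma. The other 6 members lie on chromosomes 3, 4, 6, 9, 10 and 13. A gene called Gm21970 shares 315 exonic bases with Ifnar2 (9.46% of that gene's exonic bases) and 569 with Il10rb (14.9%), and it was listed at 0 in all 6 libraries. Gm42809, which is antisense to Il6ra, shares 242 exonic bases with it (2.80%) and had 0.238, 0 and 0.188 FPKM in WT mice and 0.389, 0 and 0.0973 FPKM in TG mice. Gm21970 lies on the same strand as Ifnar2 and Il10rb, so reads of its shared exons could belong to either gene with or without strand. Strand was not stated for the counting, so reads of Gm42809 and Il6ra cannot be told apart where they overlap. Mir7086 and Gm20612 lie within introns of Il10ra and share no exonic base with it.

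The sequence around RefSeq starts of the genes was searched for letters that the transcription factors of these same pathways are known to bind. RefSeq (GRCm38.p6) windows of 250 bases before to 50 bases after the start were at hand for 8 of the 10 members, in 9 entries, and there was no entry for Il10ra and Il10rb. The letters were TTCNNNGAA for the STAT element called GAS, GAAA followed by GAAA with any 2 bases between for the interferon-stimulated element called ISRE, and GGGA followed by TTTCC with any base between for the NF-kappaB site, on both strands (N is any base). These spellings were kept from a longer set that had already been searched in the members, so the matches are descriptions only. GAS letters were found in Tnfrsf1a, Ifnar1 and Ifnar2 and in 8.3% of 32851 RefSeq promoters. NF-kappaB letters were found in Ifngr2 and in 0.411% of promoters. ISRE letters were found in none of the 9 entries and in 3.44% of promoters. The windows of the 3 members with an entry whose TG libraries all lay above WT with an unadjusted p under 0.05 are shown whole (for Lepr the first of its 2 entries, the other, which also holds no match, being left out), 5′ to 3′ along the gene, with a match in capitals.
Il6ra, chr3:89913147-89913446, minus strand: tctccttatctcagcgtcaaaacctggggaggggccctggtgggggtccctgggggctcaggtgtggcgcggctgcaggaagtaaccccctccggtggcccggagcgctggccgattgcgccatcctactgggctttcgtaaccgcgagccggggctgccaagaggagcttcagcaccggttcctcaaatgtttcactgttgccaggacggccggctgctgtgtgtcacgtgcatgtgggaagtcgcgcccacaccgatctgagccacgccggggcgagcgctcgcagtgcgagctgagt
Lepr, chr4:101717157-101717456, plus strand: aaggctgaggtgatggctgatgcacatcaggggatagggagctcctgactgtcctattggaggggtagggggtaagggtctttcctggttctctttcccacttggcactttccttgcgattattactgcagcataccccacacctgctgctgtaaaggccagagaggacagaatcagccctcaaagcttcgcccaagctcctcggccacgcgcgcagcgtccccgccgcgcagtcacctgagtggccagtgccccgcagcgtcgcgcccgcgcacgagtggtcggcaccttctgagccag
Tnfrsf1a, chr6:125349473-125349772, plus strand: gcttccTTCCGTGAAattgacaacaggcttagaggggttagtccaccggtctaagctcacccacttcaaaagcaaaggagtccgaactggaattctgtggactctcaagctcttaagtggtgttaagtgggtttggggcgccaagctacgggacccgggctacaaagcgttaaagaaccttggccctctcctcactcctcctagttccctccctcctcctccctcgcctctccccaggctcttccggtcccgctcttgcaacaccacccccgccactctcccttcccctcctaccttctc
The matches of the remaining members are shown with the bases around them, again with the matched letters in capitals. The match starts at position -214 from the RefSeq start in Ifnar2, at -5 in Ifnar1 and at -75 in Ifngr2, and that of Tnfrsf1a starts at -244. For Tnfrsf1a the whole window, with its match, lies after the start of the gene as counted (125349362).
Ifnar2: tgccaaggccTTCCTGGAAgaagagagta
Ifnar1: ggcgggggcgTTCACGGAAggggcggggc
Ifngr2: ggaacaccggGGAAAGTCCCcacgggccgg
Of the members with matched letters, Tnfrsf1a had an unadjusted p under 0.05, and Ifnar1, Ifnar2 and Ifngr2 did not. Il6ra and Lepr, with no match, did have one, and Il6st and Ifngr1, with no match, did not. Il10ra and Il10rb, without an entry, were not searched. A relation of the letters to the differences between groups was not tested.

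Between TG and WT mice, 4 of the 10 receptor genes were higher at an unadjusted p under 0.05, namely Tnfrsf1a, Il10ra, Lepr and Il6ra, with mean FPKM 1.32, 1.48, 2.98 and 1.33 times those of WT mice. The same criterion was met by 3.13% of all genes tested (656 genes). The number of higher members was 2 without TG2 and 0 with a score of choroid plexus markers, high in TG1 and TG2, as a covariate. Over all genes, 453 met the criterion without TG2 and 319 with the score, where 656 had met it. None of the 10 was lower by this criterion, which 2.78% of all genes met (582 genes). In 5 members, the 4 above and Ifnar1, the lowest TG library was above the highest WT library, against 6.35% of all genes, and in none did every TG library lie below, against 5.71% of all genes. The log2 fold change, computed on log2(FPKM + 0.1), was above 0 in 9 of the 10, with a median of 0.23. Of all genes tested, 49.6% lay above 0, with a median of -0.00197. The median of the members was 0.19 without TG2, 0.23 with the choroid plexus score and 0.26 without TG1 and TG2. Set against the WT mean, the 3 WT libraries had member medians of 0.07, -0.07 and -0.01, and TG1, TG2 and TG3 had 0.15, 0.38 and 0.26. After Benjamini-Hochberg adjustment over all genes in limma, no member passed 0.05. Their adjusted p ranged from 0.786 to 0.989 and 0.00955% of all genes (2 genes) passed, and limma-voom on the reads recovered from the FPKM called none either. The members were chosen with earlier results of these data known, so these counts are a description and carry no test of the list.

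Libraries differed in cell markers as well, which touches each of these values. In bulk tissue, fewer cells of a type and less RNA per cell cannot be told apart. Reads on genes numbered 16081281 to 18751057 per library. Slc1a2 itself was 202, 199.5 and 177 FPKM in WT mice and 222, 207 and 217 FPKM in TG mice, with a log2 fold change of 0.16 (adjusted p = 0.789 in limma). Its difference did not pass the test, and the altered codons cannot be read from FPKM. These are values of RNA, whereas by western blot the study reported GLT-1 protein as nearly abolished in TG hippocampus. Summed FPKM of 16 choroid plexus markers was 84.4 to 117 in WT mice but 1353 in TG1, 4223 in TG2 and 96.8 in TG3, so TG1 and TG2 stood apart from the other 4 libraries. Ttr, the most abundant of them, was 49.8 to 73.0 FPKM in WT mice and 1168, 3705 and 57.7 FPKM in TG1 to TG3. The hippocampal label was checked on Prox1, known from dentate granule cells, at 9.81 to 14.4 FPKM over the 6 libraries and Wfs1, known from CA1, at 30.8 to 42.7 FPKM, and the neuron markers summed to 1234 to 1276 FPKM in WT mice and 1204 to 1362 FPKM in TG mice. Astrocyte markers summed to 545 to 624 and 545 to 574 FPKM, endothelial markers to 81.9 to 94.0 and 88.8 to 92.5 FPKM, and blood markers to 151 to 223 and 164 to 180 FPKM in WT and TG mice. Oligodendrocyte markers summed to 665 to 832 FPKM in WT mice and 517 to 765 FPKM in TG mice. All 9 of them had a log2 fold change below 0 (median -0.30), in 3 (Opalin, Mog and Cldn11) all TG libraries were below all WT libraries, and Opalin had an unadjusted p of 0.00983 in limma. Ependymal markers summed to 11.5 to 17.0 and 10.4 to 21.7 FPKM, with 4 of 7 above 0 and 3 (Tmem212, Ccdc153 and Rarres2) lower at an unadjusted p under 0.05 in limma. The part of these cell types in the receptor differences was not tested.

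Il6ra (ENSMUSG00000027947, chromosome 3 from 89864059 to 89913196, minus strand) encodes the chain that binds IL-6. It was 1.21, 1.32 and 1.27 FPKM in WT mice 1 to 3 and 1.84, 1.70 and 1.51 FPKM in TG mice 1 to 3 (values are given in this order throughout). All 3 TG libraries lay above all 3 WT libraries, and means were 1.27 ± 0.0520 and 1.68 ± 0.162 FPKM (SD, n = 3). The log2 fold change was 0.38 with an SE of 0.137 and a 95% interval of 0.06 to 0.70, with adjusted p = 0.786 and an unadjusted p of 0.0265 in limma. Fitting the choroid plexus marker score with the group gave 0.28 (unadjusted p = 0.218 in limma), and leaving out TG1 and TG2 gave 0.24 (unadjusted p = 0.262 in limma). TG3, where the sum of the choroid plexus markers was at the WT level, had the lowest of the TG values and still lay above every WT library. In 4 of the 16 choroid plexus markers every TG library, TG3 included, lay above every WT library, and in the other markers TG3 did not. The part that choroid plexus RNA has in the difference was not tested further.

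Il6st (ENSMUSG00000021756, chromosome 13 from 112464070 to 112510086, plus strand) encodes gp130, the signalling chain shared by receptors for IL-6, IL-11, LIF, CNTF and oncostatin M. It was 8.49, 7.35 and 6.06 FPKM in WT mice and 8.14, 8.10 and 8.83 FPKM in TG mice. WT1 lay above 2 of the TG libraries, so the groups overlapped. In log2 terms the difference was 0.20 with an interval of -0.09 to 0.50 and adjusted p = 0.789 in limma. Il6ra was therefore 0.143, 0.179 and 0.209 times Il6st in WT mice and 0.226, 0.2095 and 0.171 times in TG mice, and this ratio of binding to signalling chain overlapped between groups.

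Lepr (ENSMUSG00000057722, chromosome 4 from 101717404 to 101815352, plus strand) encodes the leptin receptor, a relative of gp130 that is also known from choroid plexus and meninges. It was 0.376, 0.202 and 0.144 FPKM in WT mice and 0.538, 1.16 and 0.448 FPKM in TG mice, from 49, 23 and 19 reads and from 60, 147 and 57 reads. TG2 stood far above the rest, and TG1 and TG3 lay above WT1, the highest of the WT libraries, by a smaller margin. Means were 0.241 ± 0.121 and 0.716 ± 0.390 FPKM (SD, n = 3), the largest fold of the 10 members. TG minus WT, the log2 fold change was 1.22 with an SE of 0.414 and an interval of 0.25 to 2.19, with adjusted p = 0.786 and an unadjusted p of 0.0206 in limma.

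The order of Lepr across the TG libraries followed the choroid plexus markers, highest in TG2, then TG1, then TG3. Prlr, the prolactin receptor and a choroid plexus marker, had 1.32, 3.53 and 0.249 FPKM in TG1 to TG3 and 0.226 to 0.324 FPKM in WT mice. With the choroid plexus score as a covariate the log2 fold change of Lepr was 0.51 (unadjusted p = 0.324 in limma). Without TG1 and TG2 it was 0.74 (unadjusted p = 0.216 in limma), and without TG2 alone it was 0.85 (unadjusted p = 0.0693 in limma). Meningeal markers summed to 33.0, 17.0 and 15.9 FPKM in WT mice and 25.2, 19.5 and 24.3 FPKM in TG mice, and overlapped between groups. Their sum was highest in WT1, the WT library with the most Lepr. Among TG mice it was lowest in TG2, the TG library with the most Lepr. The part of choroid plexus and meningeal RNA in the Lepr difference was not tested further. Leprot, the leptin receptor overlapping transcript gene, whose coordinates in the table do not overlap Lepr, was 14.8, 13.9 and 14.7 FPKM in WT mice and 12.9, 14.2 and 13.0 FPKM in TG mice. Lepr relative to Leprot was 0.0254, 0.0145 and 0.00978 in WT mice and 0.0419, 0.0818 and 0.0343 in TG mice, with no overlap.

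**Figure D2:**
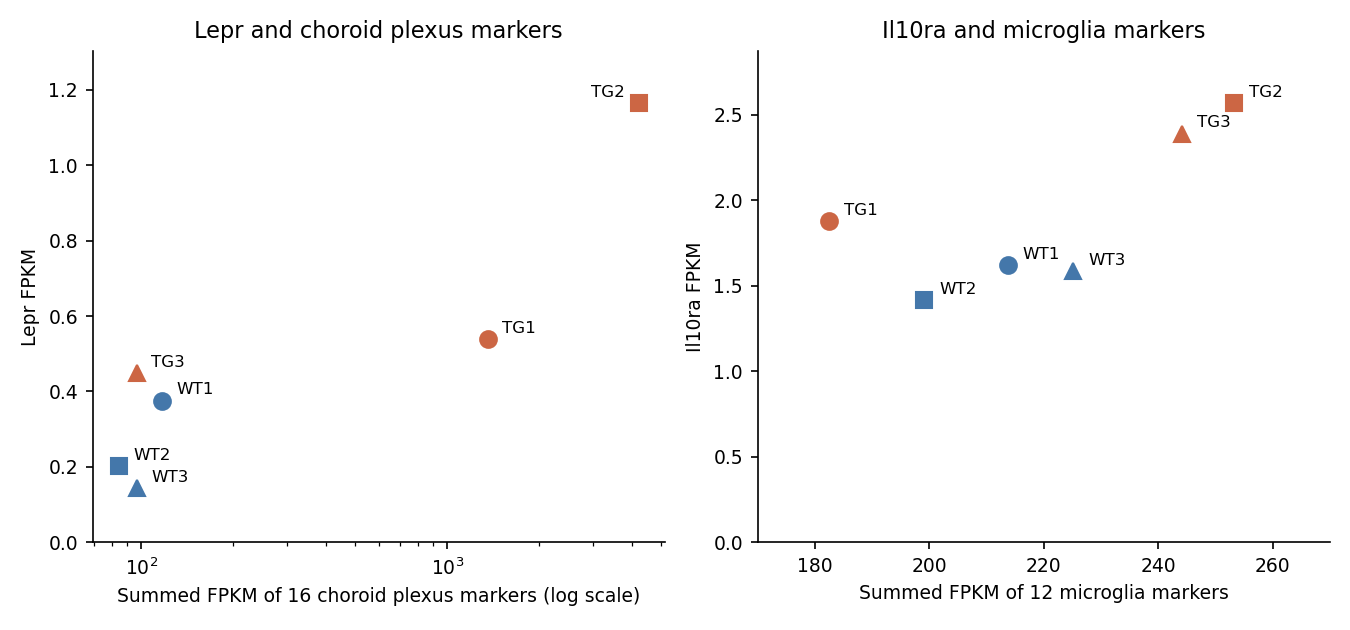
Left, Lepr FPKM against the summed FPKM of 16 choroid plexus markers (log scale) in each library. Right, Il10ra FPKM against the summed FPKM of 12 microglia markers, on a horizontal axis that does not start at 0. Lepr was highest in TG2, where the choroid plexus sum was 4223 FPKM, and Il10ra in TG1 lay above every WT library at the lowest microglia sum of all 6 libraries (182.5 FPKM).

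Il10ra (ENSMUSG00000032089, chromosome 9 from 45253837 to 45269149, minus strand) encodes the chain that binds IL-10, and in brain it is known mainly from microglia. It was 1.62, 1.42 and 1.59 FPKM in WT mice and 1.88, 2.57 and 2.39 FPKM in TG mice. All TG libraries lay above all WT libraries, with means of 1.54 ± 0.111 and 2.28 ± 0.358 FPKM (SD, n = 3). On the log2 scale the fold change was 0.53 with an SE of 0.152 and an interval of 0.17 to 0.88, with adjusted p = 0.786 and an unadjusted p of 0.00995 in limma. It was 0.51 with the choroid plexus score as a covariate (unadjusted p = 0.0690 in limma) and 0.60 without TG1 and TG2 (unadjusted p = 0.0345 in limma). Il10ra was the only member still under an unadjusted p of 0.05 without those 2 libraries.

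Microglia markers summed to 214, 199 and 225 FPKM in WT mice and 182.5, 253 and 244 FPKM in TG mice, so they overlapped between groups and were lowest in TG1. Their most abundant gene, C1qa, was 46.8, 45.2 and 50.5 FPKM in WT mice and 40.8, 55.8 and 57.4 FPKM in TG mice. Per 100 FPKM of the microglia sum, Il10ra was 0.759, 0.711 and 0.705 in WT mice and 1.03, 1.01 and 0.979 in TG mice. The difference on this scale was 0.47 (log2), with no overlap and an exact permutation p of 0.1, the smallest that 3 against 3 allows. This scaling was chosen after the data had been seen. On it Il6ra (log2 difference 0.33, exact permutation p = 0.2) and Tnfrsf1a (0.32, exact permutation p = 0.3) overlapped between groups, as did 5 other members, while Lepr and Ifnar2 did not. The share of all genes tested that would not overlap on this scale was not computed, so these counts are a description only.

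T and NK cells also carry Il10ra, and their 9 markers summed to 0.910 to 1.75 FPKM in WT mice and 0.973 to 2.81 FPKM in TG mice. Of the 5 that passed the filter, 4 had a log2 fold change above 0 (median 0.66), and none had an unadjusted p under 0.05 in limma. Against the WT mean, the medians of this list were 0.09, -0.32 and 0.08 in WT mice and -0.16, 0.99 and 0.58 in TG mice, so they were high in TG2 and TG3, the libraries with the most Il10ra, and not in TG1. Cd8a, of cytotoxic T cells, was 0.119, 0.0511 and 0.103 FPKM in WT mice and 0.191, 0.353 and 0.183 FPKM in TG mice, with no overlap, on 3 to 23 reads. Cd3d reached 17 reads in TG2, Nkg7 had 0 to 11 reads and Cd3e 0 to 6 reads per library, and Ncr1 was at 0 in every library. The most abundant, Trac, was 0.810, 0.596 and 1.43 FPKM in WT mice and 0.338, 1.31 and 0.829 FPKM in TG mice. The part of T and NK cells in the Il10ra difference was not tested.

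Il10rb (ENSMUSG00000022969, chromosome 16 from 91406164 to 91425834, plus strand) encodes the signalling chain that IL-10 receptors share with receptors for IL-22 and lambda interferons. It was 1.52, 1.28 and 1.35 FPKM in WT mice and 1.41, 1.86 and 1.32 FPKM in TG mice, with TG2 above the other 5 libraries. The log2 fold change was 0.13 with an interval of -0.27 to 0.52 and adjusted p = 0.858 in limma, and its sign turned to -0.13 with the choroid plexus score and to -0.01 without TG2. Il10ra was 1.07, 1.10 and 1.18 times Il10rb in WT mice and 1.33, 1.38 and 1.81 times in TG mice. This was the second of the 2 ratios that did not overlap between groups, Lepr to Leprot being the other.

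Ifnar1 (ENSMUSG00000022967, chromosome 16 from 91485238 to 91507441, plus strand) and Ifnar2 (ENSMUSG00000022971, chromosome 16 from 91372783 to 91405589, plus strand) encode the paired chains of the receptor for interferons alpha and beta. Ifnar1 was 7.60, 7.57 and 6.89 FPKM in WT mice and 8.02, 7.71 and 7.75 FPKM in TG mice. No TG library was within the WT range, but TG2 at 7.71 FPKM was next to WT1 at 7.60 FPKM. In log2 terms the difference was 0.09 with an interval of -0.09 to 0.27 and adjusted p = 0.789 in limma. Ifnar2 was 3.92, 3.55 and 3.77 FPKM in WT mice and 3.63, 5.13 and 4.76 FPKM in TG mice. TG2 and TG3 lay above every WT library and TG1 lay within the WT range. The log2 fold change of Ifnar2 was 0.25 with an interval of -0.08 to 0.57 and adjusted p = 0.789 in limma, and it was 0.39 without TG1 (unadjusted p = 0.00806 in limma). Per 100 FPKM of the microglia sum, Ifnar2 was 1.83, 1.78 and 1.67 in WT mice and 1.99, 2.02 and 1.95 in TG mice. On this scale TG1 lay above every WT library, with the lowest microglia sum of all libraries (182.5 FPKM) as its divisor.

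Ifngr1 (ENSMUSG00000020009, chromosome 10 from 19591949 to 19610229, plus strand) encodes the chain that binds interferon gamma. It was 5.53, 5.44 and 5.67 FPKM in WT mice and 4.95, 5.996 and 5.83 FPKM in TG mice, and the WT range lay within that of TG mice. TG minus WT, the log2 fold change was 0.01 with an interval of -0.22 to 0.23 and adjusted p = 0.989 in limma. Ifngr2 (ENSMUSG00000022965, chromosome 16 from 91547072 to 91565623, plus strand) encodes the signalling chain. It was 15.2, 15.3 and 17.8 FPKM in WT mice and 15.8, 14.8 and 16.9 FPKM in TG mice. On the log2 scale the fold change was -0.02 with an interval of -0.23 to 0.19 and adjusted p = 0.964 in limma, and it was the only member below 0. Its sign was positive with the choroid plexus score (0.11) and without TG1 and TG2 (0.08).

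Tnfrsf1a (ENSMUSG00000030341, chromosome 6 from 125349362 to 125362484, plus strand) encodes TNF receptor 1, the death domain receptor for TNF and lymphotoxin alpha. It was 4.74, 3.78 and 4.14 FPKM in WT mice and 6.02, 5.47 and 5.17 FPKM in TG mice. The groups did not overlap, with means of 4.22 ± 0.486 and 5.55 ± 0.433 FPKM (SD, n = 3). The log2 fold change was 0.39 with an SE of 0.112 and an interval of 0.13 to 0.66, with adjusted p = 0.786 and an unadjusted p of 0.00956 in limma, the smallest of the 10 members. It was 0.31 with the choroid plexus score as a covariate (unadjusted p = 0.113 in limma) and 0.29 without TG1 and TG2 (unadjusted p = 0.172 in limma). TG3 was again the lowest of the TG libraries and lay above WT1, the highest of the WT libraries. Tnfrsf1b, which encodes TNF receptor 2, was 1.52, 1.44 and 1.37 FPKM in WT mice and 1.90, 1.93 and 1.67 FPKM in TG mice (log2 fold change 0.32, unadjusted p = 0.0390 in limma). Tnfrsf1a was 3.13, 2.62 and 3.02 times Tnfrsf1b in WT mice and 3.16, 2.84 and 3.10 times in TG mice, so the ratio of the TNF receptors overlapped between groups while both genes were higher in all TG libraries.

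**Figure D3:**
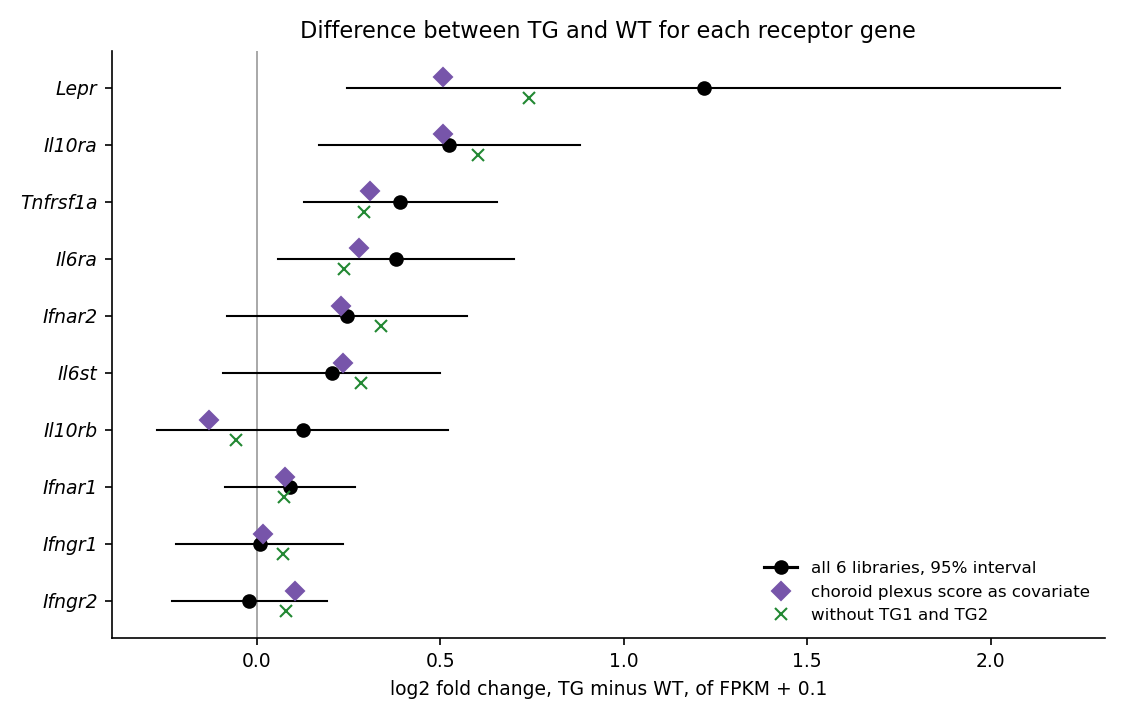
Log2 fold change (TG minus WT, of FPKM + 0.1) of each cytokine receptor gene with all 6 libraries (circles, 95% interval), with the choroid plexus marker score as a covariate (diamonds) and without TG1 and TG2 (crosses). Lepr moved from 1.22 to 0.51 with the covariate and Il10ra from 0.53 to 0.51, and Il10rb changed sign.

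Of the 6 ratios compared, 2 did not overlap between groups. The ratios were of the 2 chains of a receptor or, for Tnfrsf1a and Lepr, to a paired gene that is not a chain of the same receptor. The exact permutation p was 0.1 for Il10ra to Il10rb (log2 difference 0.42) and for Lepr to Leprot (1.68), and 0.3 after Benjamini-Hochberg adjustment over the 6 ratios. Since 0.1 is the smallest p that 3 against 3 can give, no ratio could pass 0.05. For the others the permutation p was 0.4 for Il6ra to Il6st (log2 difference 0.20), 0.5 for Ifnar1 to Ifnar2 (-0.16), 0.6 for Tnfrsf1a to Tnfrsf1b (0.06) and 1 for Ifngr1 to Ifngr2 (0.03). Ifngr1 was 0.364, 0.356 and 0.319 times Ifngr2 in WT mice and 0.314, 0.405 and 0.345 times in TG mice. Ifnar1 was 1.94, 2.13 and 1.83 times Ifnar2 in WT mice and 2.21, 1.504 and 1.63 times in TG mice.

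**Figure D4:**
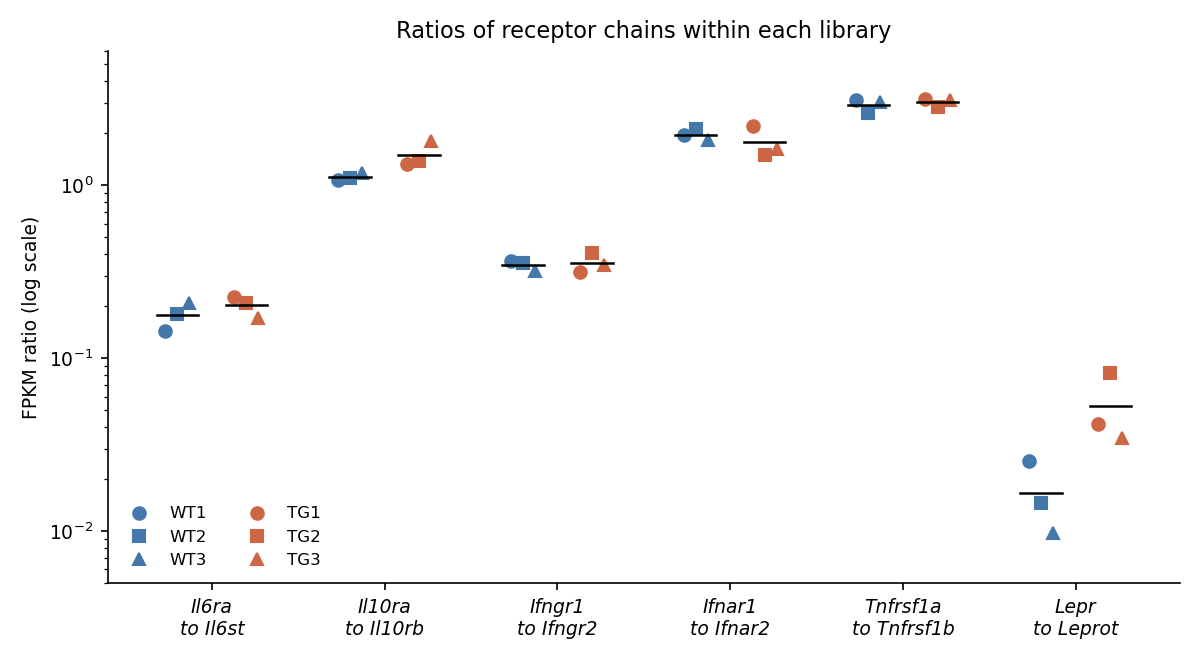
FPKM ratio of 6 pairs of genes (2 chains of a receptor, or a receptor gene and a paired gene) in each library (points, log scale) with the mean of each group (lines). Il10ra to Il10rb (1.07 to 1.18 in WT mice, 1.33 to 1.81 in TG mice) and Lepr to Leprot do not overlap between groups, and the other 4 pairs do.

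Cytokine ligands were scarcely counted. Of 28 ligand genes listed, which include 7 that act mainly through other receptors (Il1b, Il12a, Il12b, Il19, Il20, Il24 and Ltb), 11 had 0 reads in every library, 7 had no more than 3 reads in any library, and 7 passed the filter. In WT and TG mice, Il6, the ligand of Il6ra, had 2, 0 and 0 against 0, 2 and 1 reads. Il10 had 0 reads in 5 libraries and 1 read in TG2, as did Ifng, the gene of interferon gamma. Tnf had 1, 1 and 0 reads in WT mice and 1, 0 and 0 in TG mice. Lta had 0, 3 and 3 against 1, 2 and 0 reads, and Lep, the gene of leptin, which is made mainly by fat tissue, had 0, 1 and 1 in both groups. The 7 type I interferon genes listed had 0 reads in all libraries. At a floor of 3 reads, a gene of 1 kb would have 0.160 to 0.190 FPKM. Differences between levels at or below this floor could not be resolved at this depth, and a detection limit for larger rises was not computed. The most abundant ligand was Ctf1, which encodes cardiotrophin 1, a ligand of gp130 receptors. It had 1.01, 0.984 and 0.761 FPKM in WT mice and 1.21, 1.74 and 1.09 FPKM in TG mice (log2 fold change 0.49, unadjusted p = 0.0554 in limma). The lowest unadjusted p among ligands with a negative log2 fold change was that of Il12a, a subunit of IL-12, at 0.526 in limma on 3 to 14 reads (log2 fold change -0.28). The median over the 7 ligands tested was -0.09, and 3 of the 7 lay above 0. Of these 7, Il11, Lif, Clcf1 and Ctf1 act through gp130, with log2 fold changes of -0.09, 0.13, 0.07 and 0.49, and Il1b, Il12a and Ltb were all below 0.

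The list of other receptor chains held 29 genes, among them receptors of other families (such as Csf1r, Il1r1 and Il17ra) and Leprot. Of the 29, 23 were tested, and 17 of these had a log2 fold change above 0 (median 0.15). At an unadjusted p under 0.05 in limma, 2 were higher and 1 was lower, against 3.13% and 2.78% of all genes tested, and the groups did not overlap in 4 with TG above and 2 with TG below, against 6.35% and 5.71%. The higher ones were Tnfrsf1b, given above, and Csf1r, the receptor of colony stimulating factor 1 and itself a microglia marker, at 19.4, 18.9 and 19.9 FPKM in WT mice and 20.1, 23.2 and 23.0 FPKM in TG mice (log2 fold change 0.19, unadjusted p = 0.0446). The most abundant, Cntfr, which binds CNTF, was 23.1, 22.3 and 20.4 FPKM in WT mice and 24.9, 22.3 and 21.5 FPKM in TG mice.

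Kinases and adaptors that act below the receptors numbered 29, all tested, and 20 had a log2 fold change above 0 (median 0.09). At an unadjusted p under 0.05 in limma 2 were higher and none was lower, against 3.13% and 2.78% of all genes. Birc3, a ubiquitin ligase of TNF receptor complexes, was 0.356, 0.433 and 0.245 FPKM in WT mice and 0.631, 0.679 and 0.520 FPKM in TG mice, on 23 to 61 reads (log2 fold change 0.69, unadjusted p = 0.0326 in limma). Irs1, an adaptor of insulin, IL-4 and leptin signalling, was 1.41, 1.51 and 1.07 FPKM in WT mice and 1.98, 1.64 and 1.87 FPKM in TG mice (log2 fold change 0.44, unadjusted p = 0.0332 in limma). Tab1, an activator of the kinase TAK1, had the smallest p of those with a negative log2 fold change (-0.19, unadjusted p = 0.0972 in limma). Grb2, an adaptor of growth factor receptors, was the most abundant, at 53.9 to 56.5 FPKM in WT mice and 52.7 to 57.5 FPKM in TG mice. In 7 of the 29 all TG libraries were above all WT libraries, and in none were all below, against 6.35% and 5.71% of all genes.

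Inhibitors and feedback genes of the pathways numbered 19 tested, of which 15 had a log2 fold change above 0 (median 0.14), 3 were higher at an unadjusted p under 0.05 in limma and none was lower. Groups did not overlap in 6 with TG above and 1 with TG below, and the shares over all genes are those given for the other lists. Tnfaip3, which encodes A20, an inhibitor of NF-kappaB signalling, was 1.13, 1.14 and 0.976 FPKM in WT mice and 1.52, 1.57 and 1.42 FPKM in TG mice (log2 fold change 0.44, unadjusted p = 0.0163 in limma). Usp18, an interferon-induced protein that binds IFNAR2 and dampens its signal, was 0.446, 0.333 and 0.268 FPKM in WT mice and 0.476, 0.7998 and 0.734 FPKM in TG mice, on 14 to 40 reads (log2 fold change 0.77, unadjusted p = 0.0283 in limma). Pias3, an inhibitor of STAT3, was 6.63, 6.24 and 6.42 FPKM in WT mice and 7.06, 7.42 and 7.29 FPKM in TG mice (log2 fold change 0.17, unadjusted p = 0.0467 in limma). Socs2, an inhibitor of growth hormone signalling, was lower in all 3 TG libraries, at 2.47, 2.65 and 2.66 FPKM in WT mice and 2.43, 2.16 and 2.12 FPKM in TG mice (log2 fold change -0.21, unadjusted p = 0.102 in limma). The most abundant, Socs5, another SOCS family inhibitor, was 31.4 to 34.2 FPKM in WT mice and 31.1 to 33.6 FPKM in TG mice. No gene of these lists passed 0.05 after Benjamini-Hochberg adjustment in limma, the smallest adjusted p being 0.786. With the choroid plexus score as a covariate, none of the 7 higher and of the 1 lower remained under an unadjusted p of 0.05.

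**Figure D5:**
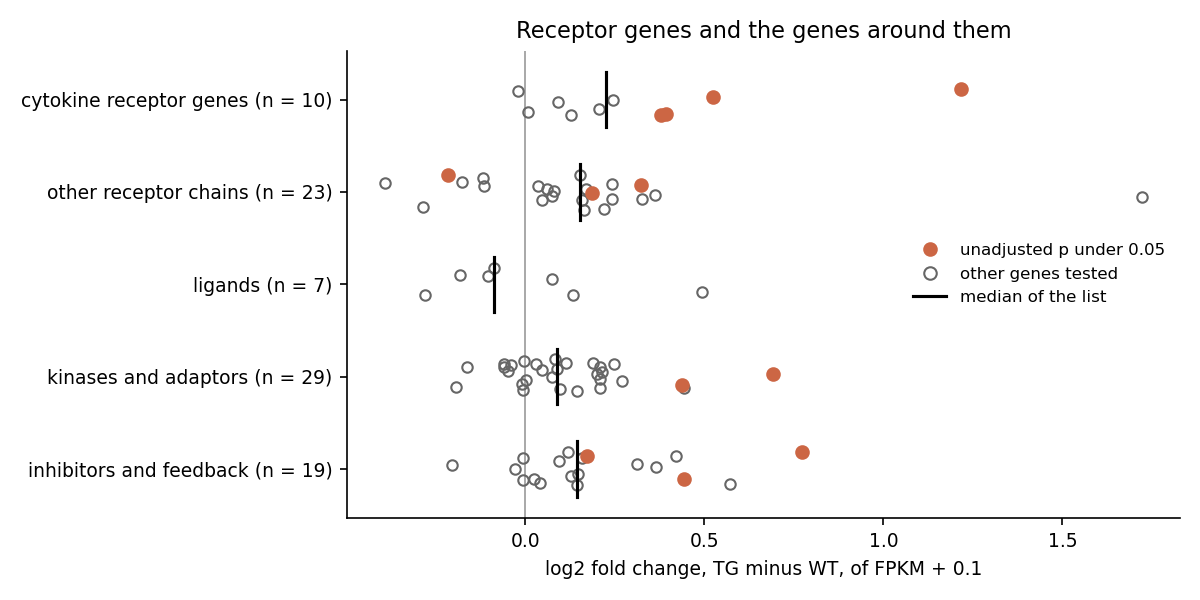
Log2 fold change (TG minus WT, of FPKM + 0.1) of every tested gene of the receptor list and of the 4 lists around it, with the median of each list as a line and genes at an unadjusted p under 0.05 filled. Medians were 0.23 for the 10 receptor genes, 0.15 for other receptor chains, -0.09 for ligands, 0.09 for kinases and adaptors and 0.14 for inhibitors and feedback genes.

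Genes whose pattern over the 6 libraries was most like that of a member were sought for the 3 members with the smallest p, by Pearson's r of log2(FPKM + 0.1) over all other genes with a mean of at least 1 FPKM. For Tnfrsf1a these were Rnf216 (r = 0.9986), Radil (0.985) and Gm49445 (0.985). For Il10ra they were Mpeg1 (0.989), Rtp4 (0.985) and Rita1 (0.982). For Lepr they were Gm13111 (0.989), Sh3d19 (0.987) and Cpt1a (0.987). Mpeg1 encodes the macrophage protein perforin-2 and Rtp4 is an interferon-induced gene. The 6 points share the group difference and the library composition given above, and with so many genes searched the values are descriptions only.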

How the data were processed

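RNA-seq of hippocampal tissue from 3 WT and 3 TG mice was used. The authors counted reads per gene with HTSeq and deposited FPKM computed from count and gene length, with 1 column per library. The submitters' processing notes name GRCm38 and mm10. The aligner and the use of strand are not given in the sources used here, and labels and methods name different kits for extraction and library preparation. FPKM times gene length gave whole multiples of 1 step in 100% of values (tolerance 0.05 reads), from which reads were recovered. Intervals of log2 fold changes come from limma and rest on the spread between libraries. The floor of 3 reads covers counting error only.

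Genes with a mean of at least 0.1 FPKM were tested with limma 3.58.1 in R 4.3.3 (lmFit, eBayes with a trend) on log2(FPKM + 0.1) over all 6 libraries, without covariate or block, with Benjamini-Hochberg adjustment over all genes tested. The pseudocount makes fold changes of low genes too small. Ratios of chains and of paired genes were tested with two-sided exact permutation tests in scipy 1.17.1. The fit was tested on simulated data. Python 3.11.15, numpy 2.4.6, pandas 2.3.3 and matplotlib 3.10.9 were also used. Of the gene identifiers, 54409 were found in GENCODE M21 (GRCm38), and 53499 had the same coordinates.

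The members, the 4 pathway lists and the 10 marker lists were chosen with earlier results of these data known. Genes named in the text were the members, of each pathway list the most abundant gene, that with the smallest p in each direction and those at an unadjusted p under 0.05, of each marker list the most abundant gene, genes overlapping a member, and the nearest patterns. Marker genes are printed only where a result turns on them. A gene of the list of other receptor chains, lower at an unadjusted p under 0.05, is counted but not reported here. Alternatives were other pseudocounts, filters and scalings, limma-voom, eBayes without a trend, robust fits, a replicate block, the choroid plexus score as a covariate, and libraries left out.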

Additional observations from a re-analysis of the deposited data

How the results depend on the processing

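No member passed an adjusted p of 0.05 under any alternative (adjusted p 0.635 to 0.9997), and the median log2 fold change of the members moved by less than its spread between libraries. The count of members higher at an unadjusted p under 0.05 was 4, 0 with the choroid plexus score as a covariate and 1 without TG1 and TG2 (Il10ra). Leaving out 1 library gave 2 (without TG2, which kept Il10ra and Tnfrsf1a) to 4, but not always of the same genes. Il6ra was no longer counted without WT1, TG1 or TG2 (unadjusted p = 0.0659, 0.0757 and 0.0625 in limma), and Lepr without WT2, WT3 or TG2. Il6st was counted without WT1 (unadjusted p = 0.0312 in limma) and Ifnar2 without TG1 (unadjusted p = 0.00806 in limma). Over all genes, 2 were called at an adjusted p under 0.05, and none with a pseudocount of 0.01 or 1, with every gene above 0 FPKM (30589 genes), with limma-voom, with the replicate block, with the choroid plexus score or without TG1 and TG2. The call count was 1 with a mean of at least 1 FPKM, where Lepr was not tested, 9 without a trend, and 0 to 6 with 1 library left out, 6 being without TG1. With the choroid plexus score 319 genes were higher and 361 lower at an unadjusted p under 0.05, where 656 and 582 had been. Of the pathway lists, 7 genes were higher, 4 with the replicate block, 0 with the choroid plexus score, 2 without TG1 and TG2, and 2 (without TG2) to 7 with 1 library left out. Without WT2 or WT3 the number was 4. The 1 lower gene was 0 with the choroid plexus score or without TG1 and TG2, and 0 (without WT2, WT3 or TG2) to 2 (without WT1) with 1 library left out.

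Log2 fold changes turned sign only in members near 0. Il10rb was -0.13 with the choroid plexus score, -0.0568 without TG1 and TG2, and -0.0138 to 0.217 with 1 library left out. Ifngr1 was -0.0087 under quantile normalization, -0.0704 relative to the microglia markers, and -0.0437 to 0.0921 with 1 library left out. Ifngr2 was 0.0366 with robust weights, 0.11 with the choroid plexus score, 0.0790 without TG1 and TG2, and -0.0690 to 0.0549 with 1 library left out. With 1 library left out, the log2 difference of Ifngr1 to Ifngr2 was -0.0719 to 0.111 and that of Tnfrsf1a to Tnfrsf1b -0.0205 to 0.108. The cause of these shifts was not tested. Same-numbered libraries of the groups had correlations of 0.00314 to 0.0434 between their deviations from the group means, so the numbers were not taken to pair the mice. The replicate block left Il6ra at an unadjusted p of 0.0542 in limma.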
